A study of Mus musculus with 2 samples.

Results

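Barcodes with a high share of mitochondrial transcripts were described in single-cell RNA-seq of mouse tumours, in 1 library of Cdh5-cre Myct1 fl/fl mice and 1 library of WT mice. A barcode marks 1 droplet, and its transcripts are counted by unique molecular identifiers (UMIs). Members were chosen by a readout: at least 200 detected genes and over 10% of the UMIs from genes whose symbol starts with mt-. The rule gave 523 members among 8745 barcodes with at least 200 genes in the knockout library, and 1654 among 9774 in the WT library. Together these are 2177 of 21580 deposited barcodes. Another 16342 barcodes were at or under 10%, and 3061 had fewer than 200 genes.

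The knockout library came from C57BL/6 mice with Cre under a Cdh5 promoter, labelled Cdh-cre, and 2 loxP-flanked alleles of Myct1. Cdh5 encodes VE-cadherin, the adhesion molecule of endothelial junctions, so the Cre driver is endothelial. Myct1 is a gene expressed in blood vessel endothelium. The WT library came from C57BL/6 mice whose genotype is labelled WT, with no Cre or floxed allele named. For each library the tumours of 4 mice were pooled and made into a cell suspension with collagenase, dispase and a deoxyribonuclease. The labels give neither the tumour type nor the age of the mice. Each genotype has 1 library, so differences between them have no replicate check, library and genotype cannot be told apart, and no test is given. Intervals are exact 95% intervals and cover counting error only, because barcodes of 1 library are not replicates.

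Mitochondria carry their own small circular genome, which encodes core subunits of the respiratory chain and ATP synthase. Its transcripts stay inside the organelle, while other messenger RNAs are in the cytosol or nucleus. In dissociated tissue a high mitochondrial share is widely used as a sign of cells whose membrane has leaked, although cell types rich in mitochondria also have high shares. Cell integrity was not measured in these libraries, so the barcodes are called here by their rule.

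The 2 tables held 145331950 UMIs in the knockout library and 115519153 in the WT library, with medians of 12921 and 8725.5 UMIs per barcode. The sources were labelled as endothelial cells, yet Cdh5 and Egfl7 led in 392 knockout and 758 WT barcodes with at least 200 genes. In all, 218 barcode strings occurred in both libraries, and 4 knockout and 9 WT members carried such a string. Each table lists only genes that reach at least 4 UMIs in some barcode, and Myct1 has a row in the WT table alone. Levels are given in CPM, the UMIs of a gene scaled to the same total of UMIs outside mt- genes in each group. In WT endothelial-marker members Myct1 had 263 CPM, with a UMI in 60.7% of 201 barcodes, against 246 CPM and 73.1% of 557 barcodes at or under 10%. In WT Krt8 and Krt18 members, as a background level, 0.722% of barcodes had a Myct1 UMI at a median of 7494 UMIs outside mt- genes, against 4746 in the endothelial-marker members. Which exon is flanked by loxP sites is not given in the labels.

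Members made up 5.98% of knockout barcodes (5.49 to 6.50) and 16.9% of WT barcodes (16.2 to 17.7). The WT library therefore held the larger share, and the intervals did not overlap. The median mitochondrial share of members was 13.4% in the knockout library, with quartiles of 11.2% and 20.2%, and 16.8% in WT, with quartiles of 12.6% and 26.4%. Over 50% mitochondrial UMIs were found in 36 knockout and 167 WT members. The mitochondrial share chose the members, so these values describe the rule and are no finding. Just inside the limit, from 10 to 12%, lay 178 knockout and 334 WT barcodes, with medians of 10046.5 and 8774.5 UMIs outside mt- genes. Just outside it, from 8 to 10%, lay 405 knockout and 542 WT barcodes, with medians of 11586 and 9495.

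Members differed from other barcodes on both sides of the ratio. Their median number of UMIs outside mt- genes was 6881 against 15002 in the knockout library, and 4754.5 against 10612.5 in WT. Their median number of mitochondrial UMIs was 1240 against 629 in the knockout library, and 1230.5 against 371 in WT. By these medians, members had fewer other transcripts and also more mitochondrial ones. The share that chose the members is computed from these quantities, so the rule itself favours such differences, and they are a description. Members had a median of 2179 detected genes against 3219 in the knockout library, and 1930.5 against 3009 in WT. The same held within the Krt8 and Krt18 class: members had medians of 9413.5 against 15919 UMIs outside mt- genes in the knockout library and 7494 against 15137.5 in WT. Their mitochondrial UMIs had medians of 1434.5 against 673 in the knockout library, and 1400 against 644 in WT. In the small C1qa and Lyz2 class members instead had more UMIs outside mt- genes than the other barcodes. The medians there were 3860.5 against 757.5 in the knockout library and 3738 against 992 in WT. The 2 sides of the WT class also differed in other markers. A list of 5 neutrophil genes summed to 27.0 CPM in members, from 2 UMIs, against 2480 CPM in the others, from 349 UMIs. The part of neutrophils in these medians was not tested.

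Along the share, other transcripts were fewest at the top. In the knockout library the median of UMIs outside mt- genes was 13152, 16339.5 and 12306.5 in the bins up to 2.5%, 2.5 to 5% and 5 to 10%. It was 8613.5, 3309 and 407 in the bins 10 to 20%, 20 to 50% and over 50%. In the WT library the same bins had medians of 8544, 13255, 10694, 6754, 3388 and 398. Mitochondrial UMIs went the other way, with medians of 271, 626, 844.5, 1238.5, 1168 and 1474.5 in the knockout bins and 139, 473, 772.5, 1083, 1298 and 2982 in the WT bins. The share is computed from these 2 quantities, so their course along it is a description.

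**Figure D1:**
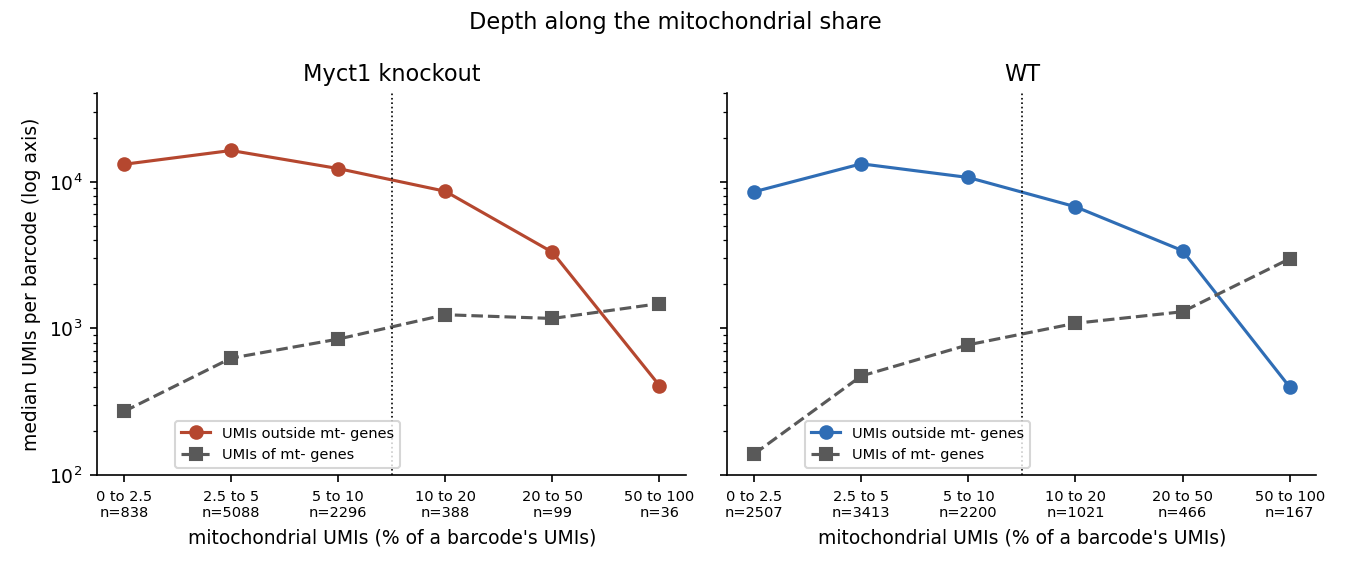
Median UMIs per barcode (log axis) outside mt- genes (solid line) and of mt- genes (dashed line) in bins of mitochondrial share, for the Myct1 knockout and the WT library. The dotted line is the 10% limit. UMIs outside mt- genes end at a median of 407 in the knockout and 398 in the WT bin over 50%, where mitochondrial UMIs are above them.

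Barcodes under 200 genes were no members. The 1955 knockout barcodes of this kind had a median mitochondrial share of 95.5%, from 61.7 to 98.8%, and 64 UMIs outside mt- genes, and 1933 of them had no marker class. The 1106 in WT had a median share of 95.4%, from 0.115 to 98.8%, and 114 UMIs outside mt- genes, and 1060 had no class.

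A barcode was given the class of its leading marker pair, with at least 2 UMIs of that pair. The pairs were Krt8 and Krt18, keratins of simple epithelia; Cdh5 and Egfl7 of endothelium; Col1a1 and Dcn of fibroblasts; and C1qa and Lyz2 of macrophages. Among the knockout members 348 (66.5%, 62.3 to 70.6) had the Krt8 and Krt18 class, against 87.7% of barcodes at or under 10%. Among the WT members 554 (33.5%, 31.2 to 35.8) had it, against 48.3%. At the depth as sequenced, the keratin class was thus less frequent among members in both libraries. Members are shallower, and with each barcode thinned to 500 UMIs outside mt- genes the class held 11.8% (9.14 to 15.0) of knockout members against 19.1% of other barcodes. In WT it then held 8.12% (6.81 to 9.60) of members against 8.92% (8.31 to 9.56), with intervals that overlapped.

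The Cdh5 and Egfl7 class went the other way, with 57 knockout members (10.9%, 8.36 to 13.9) against 4.07% of barcodes at or under 10%, and 201 WT members (12.2%, 10.6 to 13.8) against 6.86%. On thinned counts this class held 5.42% (3.60 to 7.79) of knockout members against 1.79%, and 6.37% (5.20 to 7.71) of WT members against 3.37% (2.99 to 3.79). Col1a1 and Dcn led in 12 knockout members (2.29%, 1.19 to 3.97) against 2.59%. They led in 628 WT members (38.0%, 35.6 to 40.4) against 39.6%, so the intervals of this class overlapped in both libraries. With 8 markers per class the direction turned. The fibroblast-marker class then held 8.41% of knockout members against 6.63%, and 47.3% of WT members against 42.0%. C1qa and Lyz2 led in 4 knockout members (0.765%) against 0.243%, and in 21 WT members (1.27%) against 0.653%. No class was reached by 102 knockout members (19.5%, 16.2 to 23.2) against 5.35%, and by 250 WT members (15.1%, 13.4 to 16.9) against 4.63%. On thinned counts 80.9% (77.2 to 84.3) of knockout members had no class, against 77.0% (76.1 to 77.9), and 49.4% (46.9 to 51.9) of WT members against 50.3% (49.2 to 51.4).

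Read from the other side, 14.5% (11.2 to 18.4) of knockout and 26.5% (23.4 to 29.8) of WT barcodes of the Cdh5 and Egfl7 class were over 10%. In the Krt8 and Krt18 class these rates were 4.60% (4.14 to 5.10) in the knockout and 12.4% (11.4 to 13.4) in the WT library. In the Col1a1 and Dcn class they were 5.33% (2.79 to 9.13) and 16.4% (15.2 to 17.6). In the C1qa and Lyz2 class they were 16.7% (4.74 to 37.4) of 24 knockout barcodes and 28.4% (18.5 to 40.1) of 74 WT barcodes. In the endothelial, keratin and fibroblast-marker classes the WT rate was above the knockout rate, with intervals that did not overlap, while those of the macrophage-marker class did. Thinning left the order of the larger classes as it was, at 15.6%, 3.64% and 3.73% in the endothelial, keratin and fibroblast-marker classes of the knockout library and 26.5%, 14.8% and 15.3% in WT. That step left out 25 knockout and 115 WT members with fewer UMIs.

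**Figure D2:**
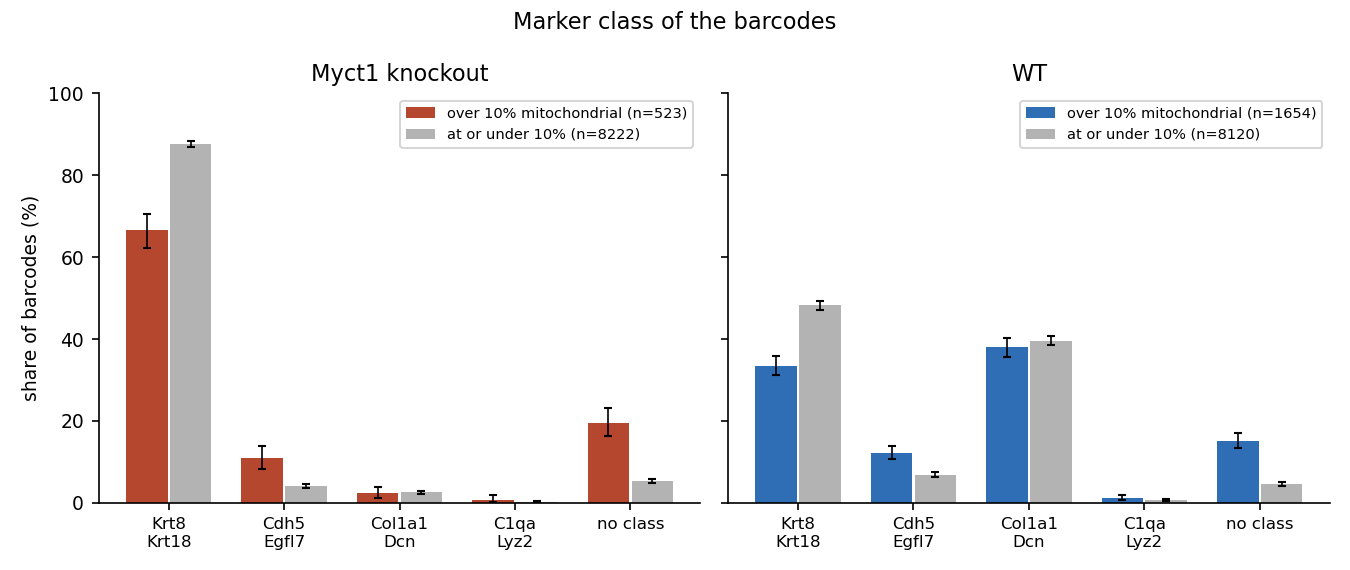
Share of barcodes (%) in each marker class, for barcodes over 10% mitochondrial (coloured) beside those at or under 10% (grey), in the Myct1 knockout and the WT library. Bars start at 0 and error bars are exact 95% binomial intervals. The Krt8 and Krt18 bar is 66.5% beside 87.7% in the knockout and 33.5% beside 48.3% in the WT library.

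Members without a class were shallow in the knockout library, with a median of 1193 UMIs outside mt- genes against 4298 for classless barcodes at or under 10%. They held 29 of the 36 knockout and 95 of the 167 WT members over 50%. Their marker sums did not point to 1 cell type: in the knockout library the 8-gene keratin, endothelial, fibroblast and macrophage lists summed to 273, 259, 334 and 165 CPM. In the WT members without a class the marker sums were 317, 386, 1708 and 124 CPM. Bpifa2, a salivary secretory protein gene, was at 0 in these members and made up 586 CPM in knockout and 1317 CPM in WT classless barcodes at or under 10%. Gene lists in members without a class can reflect a mix of cells, and only their medians are given. Ribosomal proteins had a median log2 ratio of -0.43 in the knockout and -0.69 in the WT library, splicing genes 0.59 and 0.84, beside 0.29 and 0.31 over all genes tested.

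The 13 mitochondrial genes did not keep 1 mixture. The rule used only their sum, and their shares of that sum are given here. mt-Co1, a catalytic subunit of cytochrome c oxidase, made up 21.4% of the mitochondrial UMIs of members against 19.4% in the other barcodes of the knockout library, and 28.3% against 26.8% in WT. mt-Co3, another subunit of that enzyme, made up 16.4% against 15.6% in the knockout library, and 20.8% against 17.7% in WT. Both were higher in members in both libraries. mt-Co2, also of that enzyme, was not, with log2 ratios of -0.02 in the knockout and -0.05 in WT.

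Several subunits of complex I were lower, but not all. mt-Nd6 had a share of 0.0749% in members against 0.111% in the knockout library and 0.0936% against 0.138% in WT, which are log2 ratios of -0.57 and -0.56. It is the only one of the 13 protein genes on the minus strand, at chrM:13552-14070 in GRCm38. mt-Nd4l had log2 ratios of -0.35 in the knockout and -0.49 in the WT library, and mt-Nd2 of -0.21 and -0.40. mt-Nd5 had -0.13 and -0.28, mt-Nd3 -0.13 and -0.05 and mt-Nd4 -0.03 and -0.08, while mt-Nd1 had 0.02 and 0.01. mt-Cytb, of complex III, had -0.20 and -0.09. Of the ATP synthase genes, mt-Atp6 had -0.02 and -0.19 and mt-Atp8 had 0.08 and -0.15. Within the Krt8 and Krt18 class mt-Nd6 had -0.56 and -0.49, so the lower share was also seen at a fixed marker class.

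Transcripts outside the mitochondrial genes were compared on CPM of UMIs outside mt- genes, summed over barcodes, within each class and library. A gene was tested where it reached 50 CPM on either side, and called where it differed at least 1.5-fold with an interval that excluded equality. The gene ratios carry no test over samples. In the Krt8 and Krt18 class of the knockout library 57 of 2748 genes were called higher in members (2.07%) and 7 lower (0.255%), at a median log2 ratio of 0.05. In WT 41 of 3103 genes were called higher (1.32%) and 4 lower (0.129%), at a median of 0.14. Few transcripts of this class were called, on a scale that takes out total depth. Most of its members lay at 10 to 20%, 300 of 348 in the knockout and 437 of 554 in WT. The 48 knockout members over 20% had 603 of 3047 genes called higher and 144 lower. The 117 in WT had 335 of 3147 called higher and 140 lower.

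The balance of these calls depended on the scale. On CPM of all UMIs, mitochondrial ones included, the medians were -0.12 in the knockout and -0.05 in the WT library, with 12 genes called higher and 28 lower in the knockout and 7 and 39 in WT. Centred on the median gene, there were 44 higher and 9 lower in the knockout and 10 and 33 in WT. With the other barcodes weighted to the depth of the members, where a call rests on the fold alone, 25 were called higher and 2 lower in the knockout library, and 90 and 4 in WT. None of the genes that the naming rule gave for this class changed the sign of its ratio under these scalings.

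In total 8 genes were called higher in members of both libraries, which is 14.0% of the knockout and 19.5% of the WT calls. Over all genes tested, 1.32% were called higher in WT and 2.07% in the knockout. The 8 genes were Yam1, Lars2, Col3a1, Mmp14, Tcirg1, Col7a1, Cp and Gm10263. Il24, which encodes a secreted cytokine of the IL-10 family, was the only gene called lower in both, out of 7 and 4. These calls are 0.255% of all genes tested in the knockout and 0.129% in WT.

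Yam1 ranked first by the naming rule. It had 1311 CPM in members against 523 CPM in other barcodes of the knockout class, a log2 ratio of 1.33 (1.28 to 1.37). In the WT class it had 4201 CPM against 1978 CPM, a log2 ratio of 1.09 (1.06 to 1.11). With the other barcodes weighted to the depth of the members, the log2 ratio of Yam1 was 0.88 in the knockout and 0.39 in WT, where the call was lost. Yam1 has no entry in the GENCODE M21 annotation, so its position and length are not given here. Its level was highest past 10%: in the knockout class the bins from low to high had 736, 464, 622, 1234 and 2080 CPM up to 50%. In the WT class they had 2100, 1781, 2293, 3768 and 7601 CPM. The bins over 50% held 3 knockout and 6 WT barcodes of this class and are too thin to read.

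Over all classes, Yam1 had 38921 CPM in the 36 knockout members over 50%, with a UMI in 32 of them. A single barcode held 356 of these 736 UMIs, and without it the level was 20759 CPM. Knockout members up to 50% had 1645 CPM, and barcodes at or under 10% had 553 CPM. In WT Yam1 had 12259 CPM in the 167 members over 50%, against 5239 CPM in members up to 50% and 2803 CPM at or under 10%. Barcodes under 200 genes, which are no members, had 15401 CPM in the knockout and 17120 CPM in the WT library. In that WT group 1 barcode held 1355 of the 3687 Yam1 UMIs, and without it the level was 10908 CPM.

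Lars2, the nuclear gene for the leucyl-tRNA synthetase of mitochondria, had 81.7 CPM in members against 36.2 CPM in the knockout class, a log2 ratio of 1.18 (1.00 to 1.35). In the WT class it had 140 CPM against 71.4 CPM, a log2 ratio of 0.97 (0.85 to 1.09). At matched depth the log2 ratio of Lars2 was 0.92 in the knockout and 0.48 in WT, again short of a call there. Over all classes it had 1005 CPM in knockout members over 50%, from 19 UMIs, against 108 CPM in members up to 50% and 37.1 CPM at or under 10%. In WT these levels were 372, 144 and 77.4 CPM, so Lars2 followed the order of Yam1. It lies on chromosome 9 in GRCm38. Of 10576 genes with a GENCODE transcript, Lars2 included, none shared an exact same-strand run of 30 bases with a mitochondrial transcript. Inexact matches, the opposite strand and introns were not searched, and Yam1 had no transcript to compare. Gm26917, a predicted non-coding gene outside the naming rule and chosen after its values were seen, had 34.0 CPM in members against 12.1 CPM in the knockout class, under the test level, and 104 CPM against 40.2 CPM in WT, where it was called. In classless barcodes it had 297 CPM against 10.4 CPM in the knockout library, and 1441 CPM against 149 CPM in WT.

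**Figure D3:**
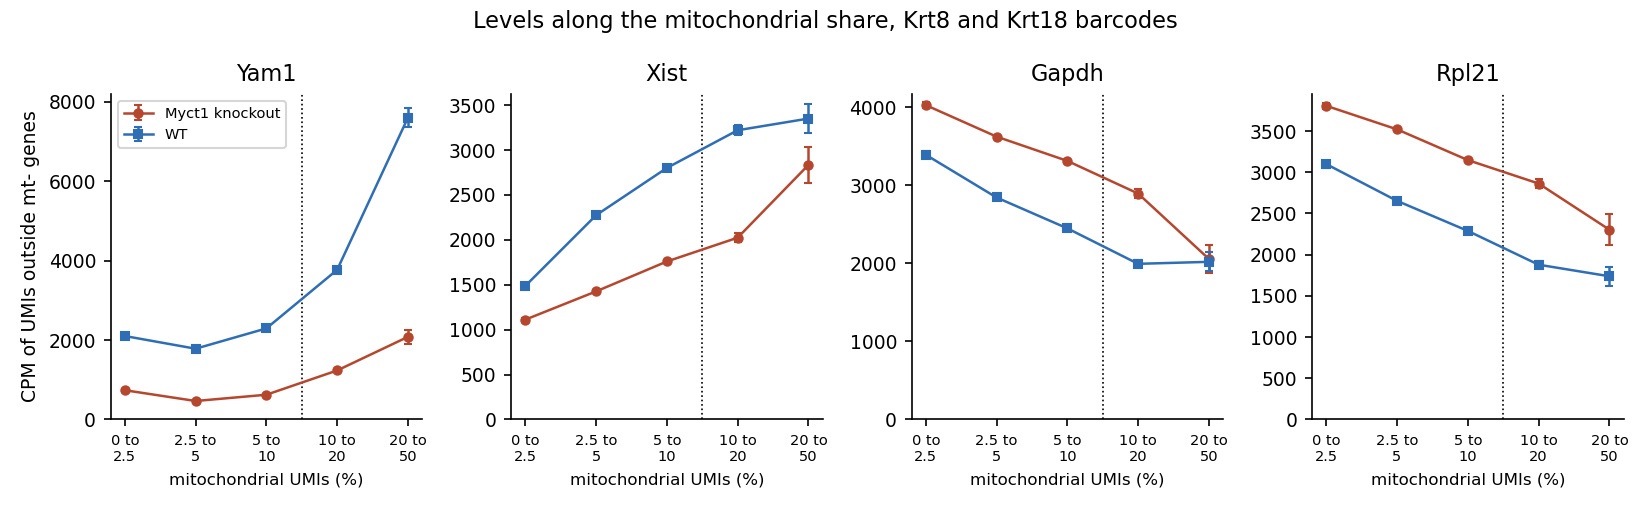
CPM of UMIs outside mt- genes for Yam1, Xist, Gapdh and Rpl21 in Krt8 and Krt18 barcodes, in bins of mitochondrial share up to 50%, for the Myct1 knockout (circles) and the WT library (squares). Error bars are counting error and the dotted line is the 10% limit. Yam1 reaches 2080 CPM in the knockout and 7601 CPM in the WT bin from 20 to 50%, while Gapdh ends at 2057 and 2020 CPM.

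In the Krt8 and Krt18 class nuclear-retained RNAs had higher levels in members, none of them past the call in the main comparison. Xist, the long non-coding RNA of the inactive X chromosome, had 2086 CPM in members against 1479 CPM in the knockout class, and 3243 CPM against 2355 CPM in WT, with log2 ratios of 0.50 and 0.46. It increased through every bin up to 50%, with 1111, 1426, 1759, 2024 and 2835 CPM in the knockout and 1487, 2275, 2801, 3221 and 3351 CPM in the WT class. Neat1, the scaffold of paraspeckles, had log2 ratios of 0.33 and 0.40, and Malat1, of nuclear speckles, had 0.22 and 0.15. The list of nuclear long non-coding RNAs had a median of 0.38 in the knockout and 0.40 in WT over 4 measured genes, none of them called, beside 0.05 and 0.14 over all genes tested. At matched depth its medians were 0.35 and 0.58, and 2 of 4 genes were called higher in WT, by the fold alone. Matched medians in the Cdh5 and Egfl7 class were 0.10 in the knockout and 0.08 in WT. In the WT Col1a1 and Dcn class the matched median was -0.04.

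Lists of nuclear functions were on the same side. RNA splicing and nuclear mRNA-binding genes had medians of 0.24 and 0.32 over 25 genes, with 24 of 25 above 0 in each library and none called. Chromatin regulators had medians of 0.30 in the knockout and 0.26 in WT. In that list 1 of 19 genes was called in the knockout, the histone acetyltransferase gene Ep300, and 1 of 21 in WT, the methyltransferase gene Kmt2d, beside 2.07% and 1.32% of all genes tested. At matched depth Kmt2d kept its call and Ep300 did not. Immediate early genes, which switch on within minutes of a stimulus, had medians of 0.27 and 0.37, with 2 of 18 called higher in each library, beside 2.07% and 1.32% of all genes tested. At matched depth 1 of 18 was called in the knockout and 6 of 18 in WT, and centred on the median gene 2 and 0 were. Dusp1, a MAP kinase phosphatase gene, had 193 CPM in members against 104 CPM in the knockout class, and Fosb, an AP-1 subunit gene, had 680 CPM against 435 CPM. The 2 called in WT were Zfp36, which encodes an mRNA-decay factor, at 243 CPM against 151 CPM, and the nuclear receptor gene Nr4a1.

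Secreted and matrix genes had medians of 0.46 in the knockout and 0.34 in WT. In the knockout class 4 of 13 were called higher, namely Col3a1, Fbn1, Col6a1 and Col5a1, and in WT 2 of 14, namely Col1a2 and Col3a1, beside 2.07% and 1.32% of all genes tested. At matched depth Col3a1 and Fbn1 remained called in the knockout and Col1a2 in WT. Col3a1, a fibrillar collagen gene, had 182 CPM in members against 71.0 CPM in the knockout class and 136 CPM against 85.2 CPM in WT. Mmp14, a membrane-bound metalloproteinase gene, had 121 CPM against 76.0 CPM and 156 CPM against 91.0 CPM. Col7a1, the collagen of anchoring fibrils, had 126 CPM against 81.8 CPM and 168 CPM against 102 CPM. Tcirg1, a subunit of the proton pump of lysosomes, had 53.6 CPM against 30.4 CPM and 64.3 CPM against 39.8 CPM. Sulf2, a heparan sulfate sulfatase gene, was called in the knockout class at 128 CPM against 70.7 CPM, and had 147 CPM against 98.1 CPM in WT.

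Col3a1 is also a fibroblast marker. The 8-gene fibroblast list, which holds Col3a1, summed to 220 CPM in knockout members against 94.6 CPM, and to 285 CPM in WT members against 181 CPM. Most of the knockout sum was Col3a1, with 622 of 752 UMIs. Without Col3a1 the other 7 genes summed to 38.1 CPM against 23.5 CPM in the knockout and 149 CPM against 95.4 CPM in WT. Col1a1 itself had 8 UMIs and Dcn 7 UMIs in the 348 knockout members. These are a marker pair of the class rule, which itself limits their counts in this class. A second marker pair was found in 1.15% of knockout members against 1.52% of other barcodes, and in 8.84% of WT members against 9.59%. Members were shallower, and these rates were not matched in depth. The part of fibroblast RNA in these ratios was not tested.

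**Figure D4:**
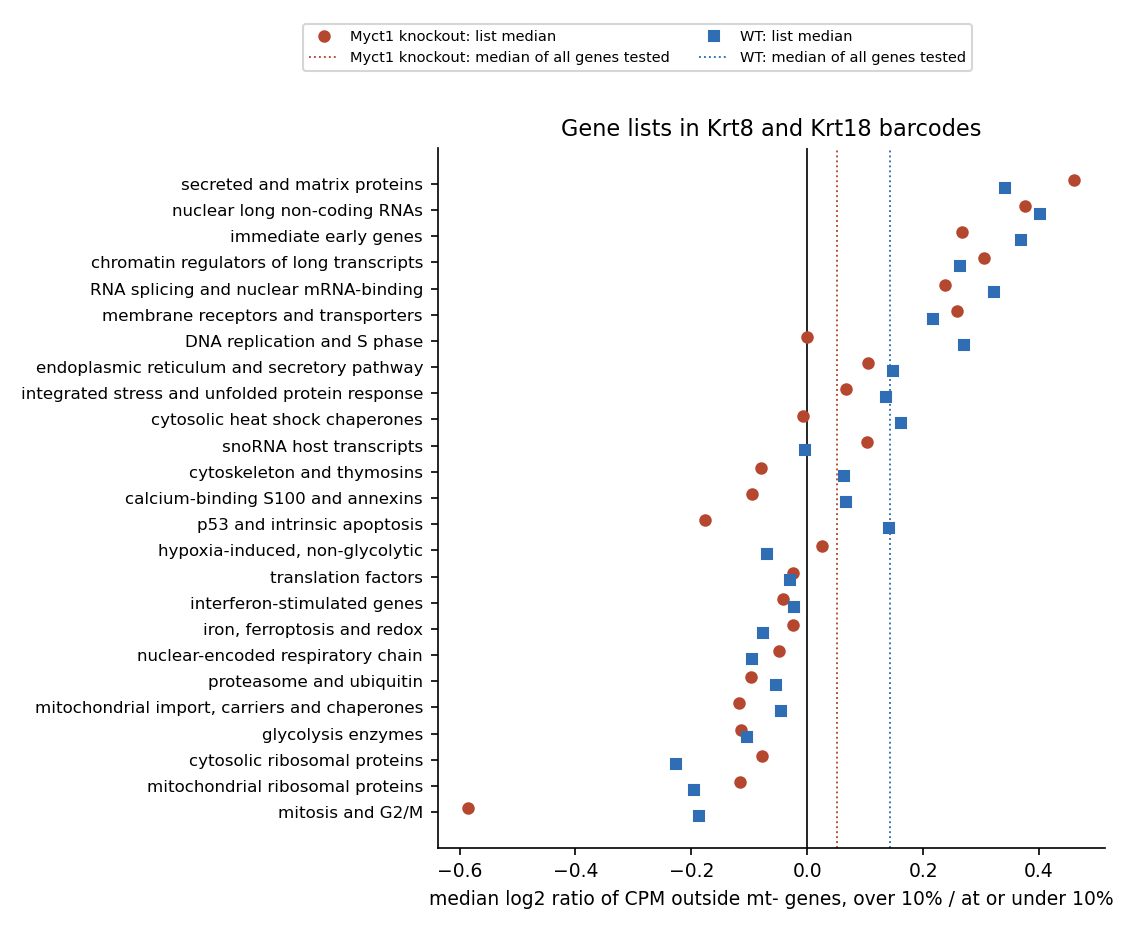
Median log2 ratio of CPM outside mt- genes, barcodes over 10% over barcodes at or under 10%, for 25 gene lists in the Krt8 and Krt18 class, in the Myct1 knockout (circles) and the WT library (squares). Dotted lines are the medians of all genes tested, 0.05 in the knockout and 0.14 in WT. Secreted and matrix genes are at 0.46 and 0.34, ribosomal proteins at -0.08 and -0.23.

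Most ribosomal protein messages had lower levels in members, short of a call. Cytosolic ribosomal protein genes had medians of -0.08 in the knockout and -0.23 in WT, with 60 and 66 of 77 genes below 0. None was called lower, and Rps15 was called higher in WT, at 3415 CPM against 2264 CPM, a call lost on CPM of all UMIs, centred and at matched depth. The list made up less of each bin along the share up to 50% than of the lowest one, with 31.6% of the UMIs outside mt- genes in the top knockout bin, against 39.6% in the lowest, and to 29.5% against 40.9% in WT. Glycolysis enzymes had medians of -0.12 and -0.10 over 13 genes, with 10 and 9 below 0 and none called, and the WT median was positive in members over 20%. Among them Gapdh had 2831 CPM in members against 3585 CPM in the knockout class and 1998 CPM against 2779 CPM in WT, log2 ratios of -0.34 and -0.48. Rpl21 had 2820 CPM against 3457 CPM and 1862 CPM against 2587 CPM.

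The other genes with the clearest lower ratios in both libraries were Pold4, Clic1, Arpc1b, Rheb, Pgk1, Sumo2, Eif4ebp1, Rpl29 and Grpel1. Their log2 ratios lay between -0.27 and -0.52, and none was called. Pold4, a small subunit of DNA polymerase delta, had 225 CPM against 306 CPM in the knockout class and 189 CPM against 270 CPM in WT. Grpel1, a cofactor of the chaperone that pulls proteins into mitochondria, had 89.0 CPM against 117 CPM and 51.3 CPM against 73.7 CPM.

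Nuclear genes for the mitochondrial respiratory chain and ribosome had slightly negative list medians. The rule itself raises the mitochondrial genes and CPM leaves them out, so no contrast with them is drawn. Those of the respiratory chain had medians of -0.05 in the knockout and -0.10 in WT, over 74 and 75 genes. Those of the mitochondrial ribosome had -0.12 and -0.20, over 42 and 37 genes. No gene of either list was called. The signs of the ribosomal, respiratory-chain, splicing, chromatin, matrix and immediate early lists in this class held under every alternative run.

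Genes called lower were few. Il24 had 55.3 CPM in members against 116 CPM in the knockout class, a log2 ratio of -1.07 (-1.29 to -0.86), and 66.6 CPM against 102 CPM in WT, a log2 ratio of -0.61 (-0.78 to -0.45). At matched depth Il24 had log2 ratios of -0.69 in the knockout and -0.44 in WT, where it was no longer called. Below the limit its level went up with the share, at 59.4, 117 and 135 CPM in the knockout bins up to 10%, and it had 55.5 and 53.9 CPM in the next 2 bins. In the knockout class the other genes called lower were Birc5, Cdk1, Cenpa, Ube2c, Ggct and Prl2c3. Birc5, Cdk1, Cenpa and Ube2c act in cell division, and 4 of the 7 measured genes of the mitosis list were called lower, at a list median of -0.59, beside 0.255% of all genes tested. With the other barcodes weighted to the depth of the members, 4 genes of the mitosis list were measured and none was called, at a median of -0.12. Ube2c, which tags mitotic cyclins for breakdown, had 44.5 CPM against 72.2 CPM, and Birc5, which encodes survivin, had 46.0 CPM against 71.3 CPM. At matched depth Ube2c had a log2 ratio of -0.08 and Birc5 of -0.19. In WT the mitosis list had a median of -0.19 over 3 measured genes with none called, and it turned positive under weighting to the depth of the members and without barcodes of a second marker pair. The other genes called lower in WT were Fam162a, Higd1a and Hbb-bs. Higd1a, a hypoxia-induced gene of the mitochondrial inner membrane, had 302 CPM against 474 CPM, and its call was lost at matched depth. Hbb-bs is a haemoglobin gene, and the erythroid list summed to 69.8 CPM in WT members of this class against 161 CPM.

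Longer transcripts had higher ratios in the 3 larger marker classes. By the longest GENCODE M21 transcript of each gene, the median log2 ratio in the Krt8 and Krt18 class was -0.09 in the knockout and -0.16 in WT for transcripts under 1000 bases. It was 0.30 and 0.25 for transcripts of 8000 bases or more. Across genes, Spearman's rho between length and ratio was 0.55 in the knockout and 0.46 in WT, over 2668 and 3006 genes. In the Cdh5 and Egfl7 class rho was 0.36 in the knockout and 0.37 in WT, and in the WT Col1a1 and Dcn class 0.39. In the WT C1qa and Lyz2 class, with 21 members and 53 other barcodes, rho was 0.072 over 3897 genes. Members of that class were deeper than the others, with medians of 3738 against 992 UMIs outside mt- genes. The neutrophil list summed to 27.0 CPM in them against 2480 CPM in the others. Genes share libraries and are not independent replicates, so these are descriptions with no test. The part of transcript length in the medians of the gene lists was not tested.

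**Figure D5:**
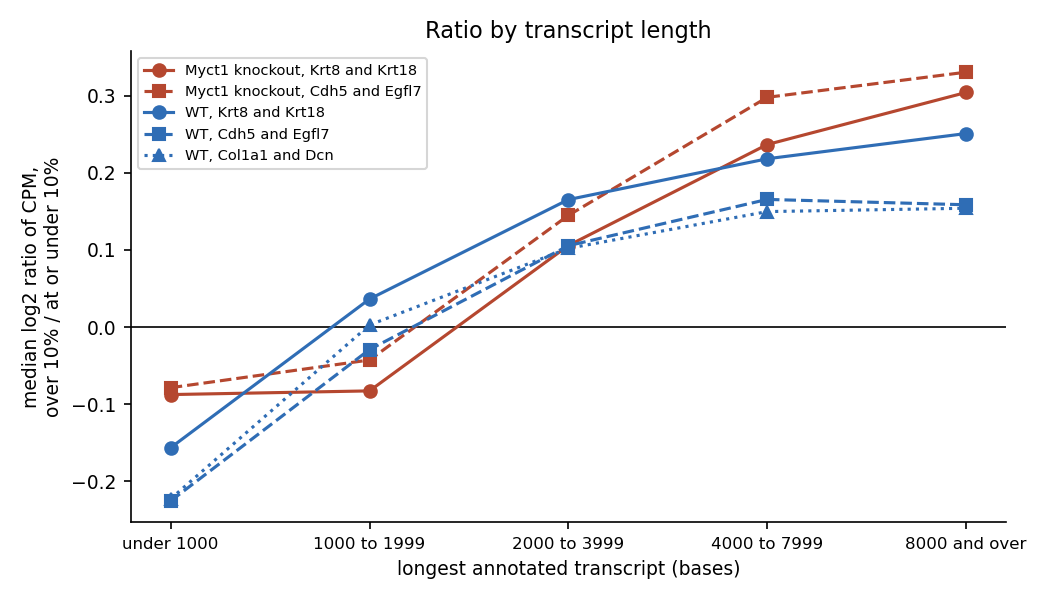
Median log2 ratio of CPM, barcodes over 10% over barcodes at or under 10%, by length of the longest annotated transcript (bases), for 3 marker classes in the Myct1 knockout and the WT library. In the Krt8 and Krt18 class the median goes with length, to 0.30 in the knockout and 0.25 in WT at 8000 bases and over.

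The Cdh5 and Egfl7 members were 57 barcodes in the knockout library, with a median of 5425 UMIs outside mt- genes against 7199, and 201 in WT, with 4746 against 6109. In the knockout library 350 of 3411 genes were called higher (10.3%) and 119 lower (3.49%), at a median of 0.12. In WT 108 of 3919 were called higher (2.76%) and 54 lower (1.38%), at a median of 0.09. On CPM of all UMIs the split was 81 higher and 333 lower in the knockout, at a median of -0.15, and 7 and 440 in WT, at -0.26. Centred on the median gene it was 191 and 206 in the knockout and 57 and 97 in WT.

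The genes called higher in both libraries were Prex2, Snn, Myo1c, Cd36, Atrnl1 and Fbln2, which is 1.71% of the knockout and 5.56% of the WT calls. Over all genes tested, 2.76% were called higher in WT and 10.3% in the knockout, so the overlap was below these shares. Prex2, an activator of the small GTPase Rac, had 155 CPM in members against 79.3 CPM in the knockout class and 381 CPM against 234 CPM in WT. Myo1c, an unconventional myosin gene, had 141 CPM against 82.5 CPM and 269 CPM against 166 CPM. Ptprb, a receptor phosphatase gene of endothelium, had 269 CPM against 171 CPM in the knockout class, where it was called, and 748 CPM against 584 CPM in WT, where it was not.

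The genes called lower in both were Gal, Nudc, Mrpl42 and 1110038B12Rik, which is 3.36% of the knockout and 7.41% of the WT calls. Over all genes tested, 1.38% were called lower in WT and 3.49% in the knockout. Gal, which encodes the neuropeptide galanin, had 80.7 CPM in members, from 27 UMIs, against 202 CPM in the knockout class. In WT it had 16.4 CPM, from 17 UMIs, against 121 CPM. The ribosomal protein list had medians of -0.27 in the knockout and -0.26 in WT, negative under every alternative run. Rpl32 had 2634 CPM against 3543 CPM and 1710 CPM against 2415 CPM. Immediate early genes had a median of -0.25 in the knockout and 0.30 in WT, and the WT value turned negative on CPM of all UMIs. In the knockout class 6 of 15 measured hypoxia-induced genes were called lower, beside 3.49% of all genes tested. In WT none of 12 was, beside 1.38% of all genes tested, and the difference between the libraries was not tested. At matched depth 4 of 14 were called lower in the knockout and none of 12 in WT. The mural list summed to 302 CPM in knockout members of this class against 154 CPM, and to 244 CPM in WT members against 274 CPM. The keratin list summed to 44.8 CPM against 131 CPM in the knockout and 76.1 CPM against 61.2 CPM in WT. The part of these cells in the ratios was not tested.

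The Col1a1 and Dcn class could be compared in WT, with 628 members. There 36 of 3429 genes were called higher (1.05%) and 23 lower (0.671%), at a median of 0.09. On CPM of all UMIs these were 5 and 232, at a median of -0.21, and centred on the median gene 19 and 50. At matched depth 52 were called higher, with 12 of the 36 among them. Cd93 and Esam, genes of endothelium, had 54.5 CPM in members against 12.9 CPM and 55.4 CPM against 14.7 CPM. Rgs5, a pericyte gene, had 297 CPM against 136 CPM. Hba-a1, a haemoglobin gene, had 81.9 CPM against 25.4 CPM, but its ratio was negative in members over 20%, as were those of Hba-a2 and Hbb-bs. Markers of other cell types moved with these genes: the endothelial list summed to 332 CPM against 149 CPM, the mural list to 801 CPM against 506 CPM and the erythroid list to 350 CPM against 119 CPM. The erythroid sum depended on depth: against other barcodes weighted to the depth of the members it was 350 CPM against 417 CPM. A second marker pair was found in 9.71% of these members against 9.31% of other barcodes, and the part of doublets or free RNA was not tested.

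Of the 23 genes called lower in this class, 1 was also called lower at matched depth, where a call rests on the fold alone. Among the 23, Timp1, an inhibitor of metalloproteinases, had 771 CPM in members against 1352 CPM. Ssr4, a subunit of the translocon-associated complex of the endoplasmic reticulum, had 139 CPM against 249 CPM. Fam162a, a hypoxia-induced gene, had 84.4 CPM against 156 CPM, and the acute-phase gene Saa3 had 187 CPM against 301 CPM. The ribosomal protein list had a median of -0.33, with 2 of 77 called lower, beside 0.671% of all genes tested. At matched depth the list had a median of -0.14 and no gene of it was called. Splicing genes had 0.19, which turned negative on CPM of all UMIs.

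Without regard to class, the genes with the clearest higher ratios were endothelial. Cdh5 had 129 CPM in members against 25.6 CPM in the knockout library and 242 CPM against 77.9 CPM in WT. Fabp4, a fatty acid carrier of capillaries, had 163 CPM against 41.8 CPM and 290 CPM against 87.4 CPM. Igfbp3 had 469 CPM against 115 CPM and 789 CPM against 296 CPM. These ratios go with the larger share of Cdh5 and Egfl7 barcodes among members.

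Between the libraries, knockout members of the Krt8 and Krt18 class were set against WT members on CPM of genes listed in both tables. Of 3221 genes 215 were called higher in the knockout (6.67%) and 494 lower (15.3%), at a median of -0.22. Centred on that median, 537 were higher and 138 lower. The same comparison in barcodes at or under 10% called 184 higher and 403 lower of 2938 genes, at a median of -0.14.

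Interferon-stimulated genes were higher in knockout members. Cxcl10, a chemokine gene, had 99.5 CPM in knockout members against 8.56 CPM in WT members, a log2 ratio of 3.54 (3.06 to 4.05), beside 2.82 in barcodes at or under 10%. Isg15, a ubiquitin-like modifier gene, had 147 CPM against 25.3 CPM, and Ifit1 and Ifitm3 were also among the 5 genes named as higher. All 4 measured interferon-stimulated genes of the list were called higher, beside 6.67% of all genes tested. Their median log2 ratio was 2.19, beside 1.88 in barcodes at or under 10%. Spp1, which encodes osteopontin, had 2523 CPM against 925 CPM, a log2 ratio of 1.45 beside 0.95 at or under 10%. Genes lower in knockout members included Yam1, Tnc, Erdr1 and Col1a2. Tnc, the matrix protein tenascin C, had 229 CPM against 575 CPM, and Yam1 1315 CPM against 4226 CPM. Col1a2, a fibroblast collagen gene, had 3 UMIs in knockout members against 239 UMIs in WT members, a log2 ratio of -5.86 (-8.15 to -4.30). The fibroblast list, which holds Col1a2, summed to 220 CPM in knockout and 285 CPM in WT members. Without Col3a1 the list summed to 38.1 CPM in knockout and 149 CPM in WT members. The part of fibroblast RNA in the Col1a2 ratio was not tested. The genes named here in either direction had the same sign in barcodes at or under 10%. Splicing genes had a median of -0.47 between the libraries in members and -0.48 in the other barcodes, beside -0.22 and -0.14 over all genes tested. Of 25 splicing genes 11 and 8 were called lower, beside 494 of 3221 and 403 of 2938 genes tested. Length went the other way here, with Spearman's rho of -0.52 in members and -0.60 in the other barcodes.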

How the data were processed

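Per the labels' protocols, tumours of 4 mice per genotype were pooled, dissociated and made into 10x Genomics Chromium 3′ libraries, described as version 1. Per the submitters' processing notes, Cell Ranger 2.1.1 and the mm10 build were used. No source used here names the annotation release. The values are raw UMI counts per gene and barcode, as deposited by the authors, 1 table per library. In both tables every listed gene reaches at least 4 UMIs in some barcode.

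Computed here: barcodes with at least 200 detected genes were split at 10% mitochondrial UMIs. A marker class needed at least 2 UMIs of its leading pair, and ties had no class. UMIs were summed over the barcodes of each side within a library and class with at least 20 barcodes on each side. They were scaled to CPM of UMIs outside mt- genes and compared by log2 ratios with exact conditional binomial 95% intervals. A side at 0 was set to the floor of 3 counts. Shares have exact Clopper-Pearson intervals. UMIs collapse PCR copies, but intervals cover counting error only. No doublet caller was run; an alternative leaves out barcodes with a second marker pair. With 1 library per genotype no test was made. The gene comparison was checked on counts simulated from the sums of the Krt8 and Krt18 class, with counting error only. Variation between barcodes and the smaller classes were not simulated.

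Genes were named by a rule: in the keratin class the 12 in each direction, same sign in both libraries, whose interval bound nearest 0 was farthest from it, without mt- genes and predicted symbols. The rule took 8 each for all barcodes and for the fibroblast-marker class, and 5 each between libraries, of which 1 is not reported here. It also took all mt- genes, the marker pairs and up to 4 genes per list. The naming of 8 each in the endothelial-marker class, and the alternatives of the comparison between libraries, were chosen after seeing the data. The members, the 26 gene lists and the rules were chosen with earlier results of these data known. Transcript lengths are from GENCODE M21 (GRCm38). Tables were handled with pandas 2.3.3 and numpy 2.4.6 in Python 3.11.15, intervals came from scipy 1.17.1 and plots from matplotlib 3.10.9.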

Additional observations from a re-analysis of the deposited data

How the results depend on the processing

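No paired analysis was possible because the labels carry no replicate numbers and each genotype has 1 library. Of 140 alternative values of shares and counts of called genes, 43 stayed within 1.5 times the count or within the interval of the share, and 97 moved. The share of barcodes over the limit was 32.2% in the knockout and 39.4% in the WT library with a limit of 5%, 1.54% and 6.48% with a limit of 20%, and 15.8% in WT with at least 500 genes.

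The share of members in the keratin class was 74.0% in the knockout and 36.6% in WT with at least 1 UMI for a class, 60.2% and 30.1% with at least 3 UMIs, and 11.8% and 8.12% on counts thinned to 500 UMIs. It was 60.6% and 30.5% with 8 markers per class, and 35.6% and 18.5% with a limit of 20%. The endothelial-marker share was 5.42% and 6.37% on thinned counts and 16.3% and 16.4% with a limit of 20%, and 13.8% in WT with 8 markers. The fibroblast-marker share with 8 markers was 8.41% in the knockout and 47.3% in WT. In WT it was 41.6% with at least 1 UMI, 35.1% with at least 3 UMIs, 34.9% on thinned counts and 34.9% with a limit of 20%.

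Counts of genes called higher and lower in members follow. Those as means over barcodes or weighted to depth rest on the fold alone, with no interval. In the knockout keratin class there were 12 and 28 on CPM of all UMIs, 523 and 96 with no level filter, 5 and 0 at 200 CPM or more, 153 and 4 as means over barcodes, 25 and 2 weighted to the depth of the members, and 603 and 144 for members over 20%. Against barcodes up to 5% there were 100 higher. In the WT keratin class the counts were 7 and 39 on CPM of all UMIs, 10 and 33 centred on the median, 638 and 69 with no filter, 6 and 2 at 200 CPM, 202 and 11 as means over barcodes, 335 and 140 for members over 20%, and 157 and 10 against barcodes up to 5%. Weighted to depth, 90 were higher.

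In the knockout endothelial-marker class the counts were 81 and 333 on CPM of all UMIs, 191 and 206 centred, 57 and 20 at 200 CPM and 703 and 237 as means over barcodes, with 225 lower without a filter. In the WT endothelial-marker class they were 7 and 440 on CPM of all UMIs, 57 and 97 centred, 308 and 208 with no filter, 7 and 7 at 200 CPM, 227 and 96 as means over barcodes, 346 and 182 for members over 20%, and 163 and 84 against barcodes up to 5%. In the WT fibroblast-marker class they were 5 and 232 on CPM of all UMIs, 19 and 50 centred, 445 and 144 with no filter, 8 and 7 at 200 CPM, 383 and 83 as means over barcodes, and 428 and 161 for members over 20%, with 4 lower weighted to depth. Between the libraries, the knockout over WT counts were 537 and 138 centred, 474 and 1453 with no filter and 68 and 90 at 200 CPM, with 298 lower for members over 20%.

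Of the named genes, 4 values changed sign, all in the WT fibroblast-marker class. Hbb-bs had a log2 ratio of -0.59 weighted to depth, and in members over 20% Hbb-bs had -1.03, Hba-a1 -0.36 and Hba-a2 -0.10. List medians changed sign in 38 of 153 cases on CPM of all UMIs, 27 centred on the median and 32 for members over 20%. The cause was not tested in any of these, beyond the construction of each alternative: fewer genes pass a higher level, more pass without one, and fewer barcodes are over 20%. The number of members limits the knockout fibroblast-marker class and the knockout and WT macrophage-marker classes, which hold 12, 4 and 21 members. Gene calls of the WT macrophage-marker class are not given.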
